A study of Mus musculus with 24 samples.

Results

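Fat cells release stored triglyceride through a short set of enzymes and switch that release on through beta-adrenergic receptors. The 9 genes described here are the core of this machinery: the lipases Pnpla2 (adipose triglyceride lipase), Lipe (hormone-sensitive lipase) and Mgll (monoglyceride lipase), the Pnpla2 coactivator Abhd5, the Pnpla2 inhibitor G0s2, the cAMP phosphodiesterase Pde3b, the glycerol channel Aqp7 and the receptors Adrb1 and Adrb3. They were chosen as a functional set by their role, with earlier results of these data known, out of 37310 genes in the data. The libraries were RNA sequencing libraries of stromal vascular cells, the mixed fraction that holds the preadipocytes, from the inguinal white fat (WAT) and the interscapular brown fat (BAT) of C57BL/6 mice aged 6 weeks. Cells were grown close to confluence, induced for 4 days with insulin, dexamethasone and 3-isobutyl-methylxanthine, which inhibits phosphodiesterases, and then kept with insulin and triiodothyronine. Either EGCG (epigallocatechin gallate, the main polyphenol of green tea, at a dose that the labels do not give) or DMSO, the control, was in the medium. Cells were collected on day 4 or day 8, which gave 8 groups of 3 libraries, and control and EGCG cells of a day had the same hormones, so that day 4 cells had seen the induction medium alone.

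In an adipocyte, noradrenaline binds beta-adrenergic receptors, adenylyl cyclase raises cAMP, and protein kinase A phosphorylates the droplet coat protein perilipin 1 and hormone-sensitive lipase. Abhd5, held by perilipin at rest, is set free and activates adipose triglyceride lipase, which removes the first fatty acid of a triglyceride. Hormone-sensitive lipase and monoglyceride lipase remove the others, and glycerol leaves the cell through Aqp7. Insulin acts the other way, in part through Pde3b, which breaks down cAMP. In mice, Adrb3 is the receptor most particular to fat cells, and brown fat burns the released fatty acids for heat.

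The values are FPKM, read numbers scaled by the length of the gene and by the reads of the library, so levels of different genes are compared per length. Depth on genes was 39452696 to 52893848 reads for replicates 1 and 2, and 16392420 to 41675643 reads for replicate 3, which had been deposited in a separate table. In WAT day 8 EGCG replicate 3, 61.0% of the reads lay on 5 genes, against at most 10.5% in replicates 1 and 2, and member values of this library are given as deposited and then after rescaling by median ratios. Whether the replicates were separate cultures is not stated in the labels, so p-values measure the spread between these libraries, which may be technical. The depot labels were checked on Zic1, a brown fat gene, at 4.05, 3.57 and 4.38 FPKM in BAT day 8 controls and 0.0502, 0.0444 and 0.0323 FPKM in WAT day 8 controls, and on Hoxc10, a gene of inguinal fat, at 9.12, 8.37 and 10.2 FPKM and 0.0113, 0 and 0 FPKM in WAT and BAT day 8 controls, respectively. The thermogenic gene Ucp1 was low, at 6.97, 6.15 and 4.20 FPKM in BAT day 8 controls, and at 0 reads in all 3 BAT day 8 libraries with EGCG. Lhx8 and Ebf2, also used as brown fat markers, were present in both depots, at 7.74 FPKM or more and 7.52 FPKM or more in each control library, and Tcf21, a white fat marker, was under 0.1 FPKM in all 24 libraries.

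Of the 9 genes, 8 passed the filter of 1 FPKM in at least 2 of 16 libraries and were tested with limma on log2(FPKM + 1), with Benjamini-Hochberg adjustment over all 14095 tested genes. Adrb1 did not pass and is given by its reads. Aqp7 passed through control libraries alone, being at or under 0.682 FPKM with EGCG, so its calls below are not independent of the filter. With EGCG, 7 of the 8 were lower in WAT cells on day 4, and all 8 were lower in WAT cells on day 8, in BAT cells on day 4 and in BAT cells on day 8. None was higher. Of all tested genes, 53.7%, 63.6%, 48.5% and 72.6% were called in either direction in these comparisons, with 19.3%, 18.9%, 20.6% and 26.1% lower and 34.4%, 44.7%, 27.9% and 46.5% higher, in the order WAT day 4, WAT day 8, BAT day 4 and BAT day 8. The median log2 change of the 8 genes was -1.22 in WAT and -1.50 in BAT on day 4, and -3.0 in WAT and -3.86 in BAT on day 8, beside 0.09, 0.03, 0.17 and 0.17 over all tested genes. Replicate 3 had the same direction for every member called in these 4 comparisons, as deposited and rescaled.

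Pnpla2 (ENSMUSG00000025509, chromosome 7, 148641097 to 148646642, build NCBIM37), the lipase that starts the breakdown, was the most abundant of the 9 per length in controls of both depots and days. In WAT cells on day 4 it was at 158, 134 and 188 FPKM in controls and 20.7, 19.9 and 21.1 FPKM with EGCG. On day 8 it was at 198, 236 and 246 FPKM and 15.4, 15.1 and 6.64 FPKM, where the last value is from the library with 61.0% of its reads on 5 genes and came to 14.5 FPKM after rescaling. The EGCG libraries lay below every control on both days. In BAT cells Pnpla2 was at 270.2, 326 and 386 FPKM in day 4 controls and 83.3, 87.6 and 103 FPKM with EGCG. On day 8 the values were 775, 777 and 821 FPKM and 30.6, 27.6 and 35.6 FPKM. Control and EGCG libraries of BAT did not overlap on either day, and the gap was wider on day 8. The log2 changes were -2.78 ± 0.10 (SE, 7.20-fold lower, adjusted p 2.82e-09) in WAT on day 4, -3.74 ± 0.10 (14.2-fold lower) in WAT on day 8, -1.78 ± 0.10 (3.49-fold lower) in BAT on day 4 and -4.69 ± 0.10 (26.7-fold lower, adjusted p 1.14e-11) in BAT on day 8.

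Lipe (ENSMUSG00000003123, chromosome 7, 26164546 to 26183729), which cleaves diglycerides and is the main target of protein kinase A among the lipases, fell by the widest factor of the 3 lipases in WAT. WAT day 4 controls had 46.5, 41.5 and 66.0 FPKM and EGCG cells 3.91, 3.03 and 4.43 FPKM. WAT day 8 controls had 46.4, 49.4 and 65.1 FPKM and EGCG cells 1.59, 1.43 and 0.834 FPKM, the last 1.82 FPKM after rescaling. Every EGCG library was below every control, and replicate 3 was the highest control on both days. In BAT the controls had 78.4, 95.3 and 128 FPKM on day 4 and 135, 138 and 179.9 FPKM on day 8. EGCG cells of BAT had 17.5, 18.1 and 24.5 FPKM on day 4 and 6.18, 6.60 and 9.83 FPKM on day 8. The groups did not overlap on either day. Lipe was 12.7-fold lower with EGCG in WAT on day 4 (log2 change -3.33 ± 0.10, limma adjusted p 9.66e-10), 31.7-fold lower on day 8 (-4.28 ± 0.10), and 4.87-fold and 21.3-fold lower in BAT on days 4 and 8 (-2.22 ± 0.10 and -4.22 ± 0.10). Lipe overlaps 4732471J01Rik on the opposite strand, and whether counting used the strand is not given in the sources used here.

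Mgll (ENSMUSG00000033174, chromosome 6, 88674406 to 88778354), the enzyme of the last step, was less abundant and fell less. Over all 12 control libraries it ranged from 15 to 35.4 FPKM, and over all 12 EGCG libraries from 2.33 FPKM, which is 5.09 FPKM after rescaling, to 11.4 FPKM. No EGCG library of either depot reached any control library. In WAT it was 2.09-fold lower on day 4 (log2 change -0.97 ± 0.07, limma adjusted p 4.55e-07) and 4.89-fold lower on day 8 (-2.10 ± 0.07). In BAT it was 2.94-fold lower on day 4 (-1.47 ± 0.07) and 4.95-fold lower on day 8 (-2.15 ± 0.07). Mgll overlaps Gm16628 on the opposite strand.

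**Figure D1:**
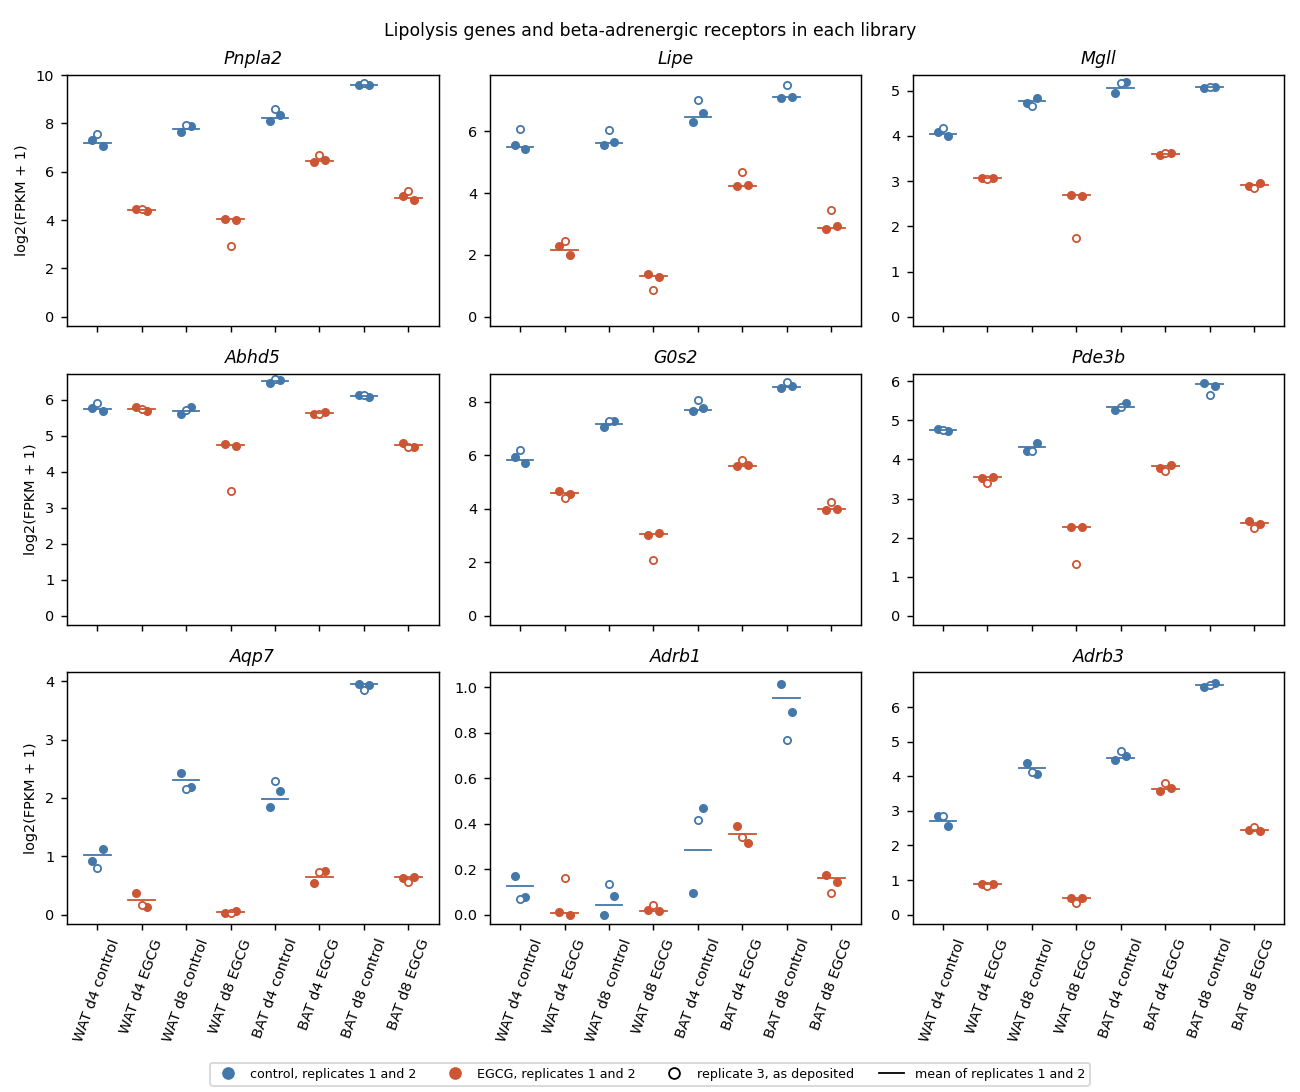
The 9 genes in each of the 24 libraries, as log2(FPKM + 1) on the vertical axis and the 8 groups on the horizontal axis, with filled points for replicates 1 and 2, open points for replicate 3 as deposited and a line at the mean of replicates 1 and 2. EGCG points lie below control points of the same depot and day for 7 genes in all 4 pairs, Abhd5 in WAT on day 4 lies level, and Adrb1 is near 0 outside BAT day 8 controls. The share of all genes that separate in this way was not computed.

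Abhd5 (ENSMUSG00000032540, chromosome 9, 122260726 to 122290642), the protein that activates adipose triglyceride lipase, was the exception on day 4 in WAT. There the controls had 54.1, 50.7 and 59.3 FPKM and the EGCG cells 54.9, 50.4 and 53.1 FPKM, so the groups overlapped. The log2 change was 0.01 ± 0.07 (SE, limma adjusted p 0.953), while in a fit of all 3 replicates with median-ratio scaling and the replicate as a block it was -0.18 (adjusted p 0.00894). On day 8 in WAT it was at 47.9, 54.6 and 51.7 FPKM in controls and 26.3, 25.2 and 10.1 FPKM with EGCG, 1.99-fold lower over replicates 1 and 2 (-0.96 ± 0.07). The third EGCG value was 22.0 FPKM after rescaling. In BAT, controls had 88.5, 92.5 and 94.7 FPKM on day 4 and 69.0, 67.2 and 69.5 FPKM on day 8. BAT cells with EGCG had 47.9, 49.8 and 47.4 FPKM on day 4 and 27.1, 24.7 and 24.8 FPKM on day 8. In these 3 settings controls and EGCG cells did not overlap, but the fall was the smallest of the 8 tested genes, at log2 changes of -0.88 ± 0.07 and -1.36 ± 0.07 in BAT on days 4 and 8.

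G0s2 (ENSMUSG00000009633, chromosome 1, 195098355 to 195099382), the short protein that binds and inhibits adipose triglyceride lipase, fell as well. In WAT on day 4 it was at 60.5, 52.1 and 72.8 FPKM in controls and 24.5, 22.2 and 20.3 FPKM with EGCG. On day 8 it was at 133, 156 and 153 FPKM and 7.17, 7.54 and 3.22 FPKM, the last 7.03 FPKM after rescaling. The controls rose between the days while the EGCG libraries went down, and the groups did not overlap. In BAT on day 4 G0s2 was at 199, 219 and 268 FPKM in controls and 47.5, 48.8 and 56.5 FPKM with EGCG. On day 8 it was at 364, 388 and 424 FPKM and 14.6, 15.1 and 18.3 FPKM. The same separation was seen in BAT. The log2 changes were -1.23 ± 0.09 in WAT on day 4 (limma adjusted p 3.94e-07), -4.12 ± 0.09 in WAT on day 8, -2.10 ± 0.09 in BAT on day 4 and -4.57 ± 0.09 in BAT on day 8 (limma adjusted p 4.36e-12, 25.4-fold lower).

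Pde3b (ENSMUSG00000030671, chromosome 7, 121558795 to 121682765), which ends the cAMP signal under insulin, was between 17.5 and 61.6 FPKM in the controls. With EGCG it was at 10.6, 10.8 and 9.48 FPKM in WAT on day 4 and 3.82, 3.81 and 1.49 FPKM in WAT on day 8, where the last was 3.24 FPKM after rescaling. In BAT with EGCG it was at 12.7, 13.5 and 12.1 FPKM on day 4 and 4.35, 4.11 and 3.77 FPKM on day 8. Every EGCG library was below every control library of any depot and day. Pde3b was 2.45-fold and 4.94-fold lower in WAT on days 4 and 8, and 3.02-fold and 14.2-fold lower in BAT (log2 change -3.54 ± 0.07, limma adjusted p 6.53e-12 on day 8).

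Aqp7 (ENSMUSG00000028427, chromosome 4, 40980107 to 40995172), which lets glycerol out of the cell, was scarce on day 4 and rose late in controls. In WAT it was at 0.894, 1.17 and 0.748 FPKM in day 4 controls and 0.287, 0.102 and 0.118 FPKM with EGCG. On day 8 the WAT controls had 4.35, 3.56 and 3.44 FPKM and the EGCG cells 0.0228, 0.0496 and 0.0190 FPKM, the last 0.0415 FPKM after rescaling. The EGCG libraries of WAT day 8 held 8 reads of Aqp7 in replicates 1 and 2 together, against 908 in the controls, a rate 116-fold lower with a 95% counting interval of 58.6 to 269.6. In BAT it was at 2.59, 3.34 and 3.91 FPKM in day 4 controls and 14.5, 14.3 and 13.4 FPKM in day 8 controls. BAT cells with EGCG had 0.451, 0.682 and 0.654 FPKM on day 4 and 0.549, 0.569 and 0.481 FPKM on day 8. Controls and EGCG cells did not overlap in either depot on either day. The fall was 25.8-fold in BAT on day 8 (log2 change -3.31 ± 0.13, limma adjusted p 5.99e-10), and the log2(FPKM + 1) scale understates it in WAT, where the level with EGCG was near 0.

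Adrb3 (ENSMUSG00000031489, chromosome 8, 28336248 to 28340060), the beta-adrenergic receptor of fat cells, spanned a wider range between depots and days in controls than any of the enzymes. WAT controls had 6.25, 4.86 and 6.15 FPKM on day 4 and 20.1, 15.8 and 16.4 FPKM on day 8. WAT cells with EGCG had 0.844, 0.860 and 0.793 FPKM on day 4 and 0.392, 0.386 and 0.266 FPKM on day 8, the last 0.581 FPKM after rescaling. No EGCG library of WAT reached 1 FPKM. BAT controls had 21.4, 23.2 and 25.6 FPKM on day 4 and 94.0, 102 and 98.5 FPKM on day 8. BAT cells with EGCG had 11, 11.6 and 13.1 FPKM on day 4 and 4.50, 4.35 and 4.83 FPKM on day 8. The groups did not overlap, and BAT cells with EGCG on day 4 were above WAT controls of the same day. Adrb3 was 6.52-fold lower with EGCG in WAT on day 4 (log2 change -1.82 ± 0.11, limma adjusted p 1.23e-07) and 46.1-fold lower on day 8 (-3.76 ± 0.11), and 1.97-fold and 22.1-fold lower in BAT (-0.92 ± 0.11 and -4.19 ± 0.11).

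Adrb1 (ENSMUSG00000035283, chromosome 19, 56796862 to 56799352), the other member of the family in the set and the main beta receptor of the heart, was scarce, at 0 to 118 reads in a library. In WAT it was between 0 and 0.125 FPKM in all 12 libraries. In BAT day 4 cells it was at 0.0699, 0.384 and 0.334 FPKM in controls and 0.311, 0.244 and 0.265 FPKM with EGCG, which overlapped. BAT day 8 controls had 1.02, 0.855 and 0.704 FPKM and EGCG cells 0.129, 0.106 and 0.0698 FPKM. Those controls stood above all other libraries of the series. They held 202 reads in replicates 1 and 2, against 29 with EGCG, a rate 8.08-fold higher (95% counting interval 5.46 to 12.4), and against 6 in WAT day 8 controls (35.2-fold, 15.9 to 97.0). The intervals cover counting error only. Without the filter on low values, limma called Adrb1 lower with EGCG in BAT on day 8 (log2 change -0.79, adjusted p 6.45e-05), and Adrb1 was not called in the other 3 EGCG comparisons.

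**Figure D2:**
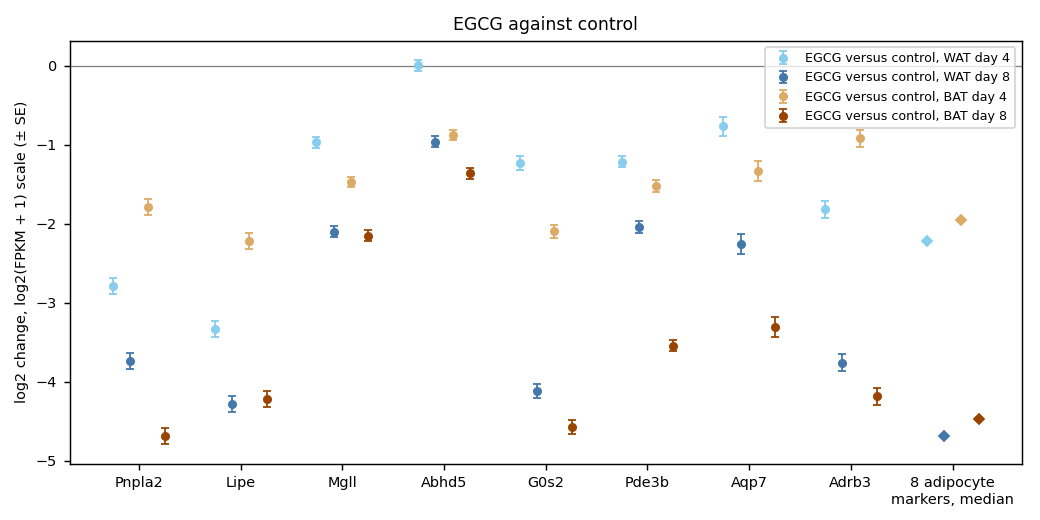
Log2 change with EGCG against control on the log2(FPKM + 1) scale (vertical axis) for the 8 tested genes (horizontal axis), with bars of 1 SE from limma, for WAT and BAT on days 4 and 8, and the median of 8 adipocyte markers as diamonds. Abhd5 shows the smallest change in all 4 comparisons, and Pnpla2, Lipe, G0s2 and Adrb3 lie at -3.74 or lower in both depots on day 8.

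The genes of fat cell identity moved the same way. Of 8 adipocyte markers (Pparg, Cebpa, Adipoq, Cfd, Retn, Lep, Slc2a4 and Plin4), all 8 were lower with EGCG in each of the 4 comparisons, with median log2 changes of -2.22 and -4.68 in WAT on days 4 and 8 and of -1.96 and -4.47 in BAT. Their summed level over the 3 libraries was 361 to 485 FPKM in WAT day 4 controls and 58.0 to 59.7 FPKM with EGCG, and 1192 to 1533 FPKM and 14.6 to 39.2 FPKM on day 8, where the lowest value is from replicate 3 as deposited and replicates 1 and 2 were at 39.2 and 35.7 FPKM. In BAT it was 741 to 989 FPKM and 191 to 211 FPKM on day 4, and 2430 to 2717 FPKM and 99.7 to 108 FPKM on day 8. Lep held at most 1 read in each library of WAT cells with EGCG, on both days. Of 4 endothelial markers, 3, 3, 4 and 4 were higher with EGCG in WAT day 4, WAT day 8, BAT day 4 and BAT day 8 cells, with sums of 12.8 to 14.2 FPKM in WAT day 4 controls and 28.0 to 31.8 FPKM with EGCG, and of 13.3 to 14.6 FPKM and 25.1 to 28.4 FPKM in BAT on day 8. Of 3 macrophage markers tested, 2 were higher with EGCG on day 4 and 3 lower on day 8 in each depot. The sums of all 4 macrophage markers were 14.4 to 15.5 FPKM in BAT day 4 controls and 23.4 to 24.7 FPKM with EGCG, and 15.7 to 15.8 FPKM and 8.00 to 9.51 FPKM on day 8. In WAT on day 4 these sums overlapped, at 6.94 to 12.2 FPKM in controls and 11.1 to 14.4 FPKM with EGCG. On day 8 in WAT they were 17.8 to 21.2 FPKM and 4.35 to 12.1 FPKM, as deposited. The 3 skeletal muscle markers tested were higher with EGCG in WAT day 4 cells, and 1, 0 and 0 of them in WAT day 8, BAT day 4 and BAT day 8 cells. The sums of all 4 muscle markers were 58.2 to 59.6 FPKM with EGCG and 30.7 to 32.5 FPKM in controls in WAT on day 4. Of 4 fibroblast and progenitor markers, 2, 3, 2 and 2 were lower and 1, 0, 1 and 0 higher in the order given above, with sums of 2489.8 to 2830 FPKM in WAT day 4 controls and 1347 to 1601 FPKM with EGCG. In BAT on day 4 these sums overlapped, at 1154 to 1275 FPKM in controls and 998 to 1162 FPKM with EGCG, and on day 8 they were 1281 to 1712 FPKM and 913 to 1004 FPKM. In these bulk libraries fewer adipocytes and less RNA per adipocyte cannot be told apart, and the part of the other cell types in the results was not tested.

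Promoter sequences are shown for Pnpla2, its inhibitor and its coactivator. Pnpla2 and G0s2 were lower with EGCG in every comparison, though by unlike factors in WAT on day 4, and Abhd5 changed least. Each is the stretch of 250 bases before the RefSeq start of the gene in build GRCm38.p6, on the strand of the gene, at chr7:141454938-141455187 (plus), chr1:193273189-193273438 (minus) and chr9:122351366-122351615 (plus). Capitals mark matches of the GC box GGGCGG and of the nuclear receptor letters AGGTCA on either strand, where the other strand reads CCGCCC and TGACCT.
Pnpla2: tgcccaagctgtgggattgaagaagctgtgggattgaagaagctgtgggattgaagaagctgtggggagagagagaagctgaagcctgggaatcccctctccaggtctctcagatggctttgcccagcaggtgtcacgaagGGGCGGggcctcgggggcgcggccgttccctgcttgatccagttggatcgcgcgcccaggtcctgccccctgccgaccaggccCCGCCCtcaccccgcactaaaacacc
G0s2: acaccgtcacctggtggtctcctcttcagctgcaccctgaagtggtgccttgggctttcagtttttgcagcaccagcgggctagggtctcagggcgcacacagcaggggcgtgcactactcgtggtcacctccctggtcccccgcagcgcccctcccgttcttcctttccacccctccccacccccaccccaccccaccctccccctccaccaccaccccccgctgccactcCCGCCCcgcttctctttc
Abhd5: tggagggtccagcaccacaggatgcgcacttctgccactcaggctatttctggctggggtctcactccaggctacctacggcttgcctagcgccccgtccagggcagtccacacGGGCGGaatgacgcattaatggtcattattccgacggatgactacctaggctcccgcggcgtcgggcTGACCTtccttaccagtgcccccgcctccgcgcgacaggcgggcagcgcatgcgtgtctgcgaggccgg
Motifs were searched on both strands in these windows and in those of Lipe, Mgll, Aqp7 and Adrb1, 10 windows of 7 genes in all, and in 32851 windows of the same length over all genes. GGGCGG was in 6 of the 10 windows, 1 for each of 6 genes, and in 32.7% of all windows. AGGTCA was in 3 of the 10 windows, those of Abhd5 and Aqp7, and in 14.0% of all windows. The windows of Aqp7 overlap and share a match, and by gene AGGTCA was in 2 of the 7. The direct repeat of PPAR and RXR, which is AGGTCA written out again after 1 free base, was in 0.0335% of all windows, the cAMP response element TGACGTCA in 1.55% and the C/EBP letters TTGCNNAA in 9.56%, and none of these was in a window of the 7 genes. A match is a description of letters and not a binding site.

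The members were then set against Pnpla2 within each library, a ratio that the scaling of a library cannot change, and replicate 3 was included. A difference of replicate 3 that is particular to a gene stays in the ratio. In every group replicate 3 had the highest Lipe ratio and the lowest Pde3b ratio of the 3 libraries. The ratio was chosen after the values had been seen and is given as a description with no test. Abhd5 reached 0.342, 0.379 and 0.315 of the Pnpla2 level in WAT day 4 controls and 2.66, 2.53 and 2.52 times that level with EGCG. On day 8 in WAT the ratios were 0.242, 0.231 and 0.210 in controls and 1.70, 1.67 and 1.52 with EGCG. Coactivator RNA thus went from below to above lipase RNA in WAT. In BAT the Abhd5 ratios were 0.328, 0.284 and 0.245 and 0.575, 0.569 and 0.460 on day 4, and 0.0890, 0.0865 and 0.0846 and 0.886, 0.893 and 0.698 on day 8. In BAT no library passed 1, and EGCG libraries were above controls on both days. The rise of the geometric mean was 7.46-fold and 7.15-fold in WAT on days 4 and 8, and 1.88-fold and 9.47-fold in BAT.

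The ratio of the inhibitor G0s2 to Pnpla2 did not follow one direction. In WAT on day 4 it was 0.383, 0.389 and 0.387 in controls and 1.19, 1.12 and 0.965 with EGCG, 2.81-fold higher. In WAT on day 8 it was 0.670, 0.659 and 0.624 and 0.465, 0.498 and 0.485. The EGCG libraries thus lay above the controls on day 4 and below them on day 8. In BAT it was 0.738, 0.673 and 0.693 and 0.570, 0.558 and 0.548 on day 4, and 0.470, 0.50 and 0.517 and 0.476, 0.546 and 0.514 on day 8, where the libraries overlapped. Mgll and Pde3b lay higher against Pnpla2 in EGCG libraries than in controls, without overlap, in 3 of the 4 pairs of depot and day, by 2.85-fold and 2.09-fold over all 4 pairs. Lipe went the other way without overlap in 3 of the 4 pairs, and in BAT on day 8 it was 0.174, 0.177 and 0.219 in controls and 0.202, 0.239 and 0.276 with EGCG.

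**Figure D3:**
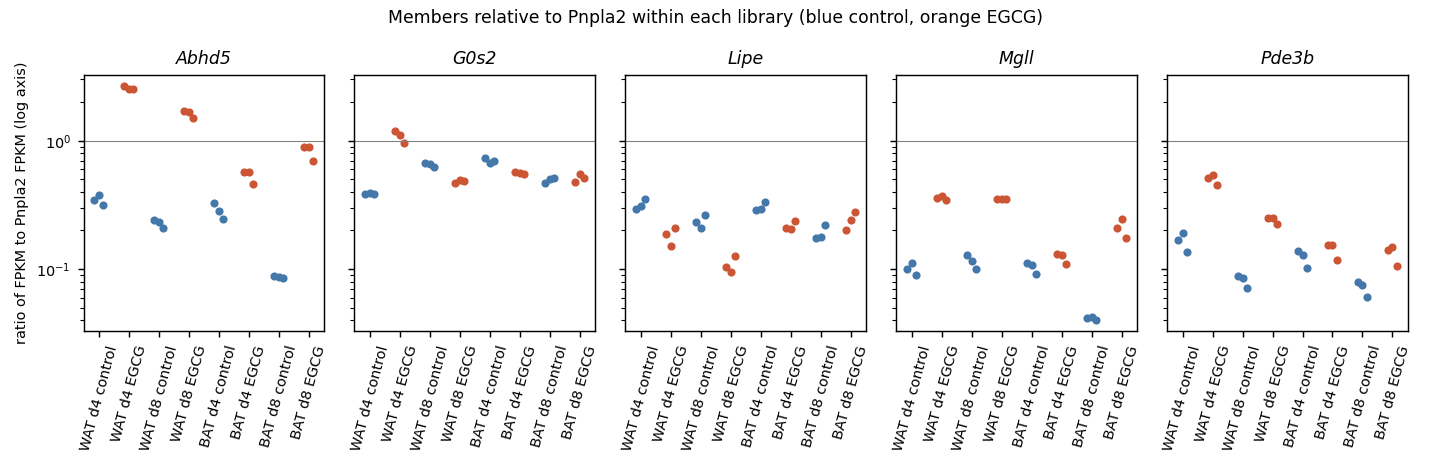
Ratio of the FPKM of Abhd5, G0s2, Lipe, Mgll and Pde3b to that of Pnpla2 in the same library, on a log axis, for 3 libraries in each of the 8 groups (blue control, orange EGCG). The Abhd5 ratio is higher with EGCG in all 4 pairs and passes 1 in WAT cells with EGCG, and the G0s2 ratio is higher with EGCG in WAT on day 4 only.

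Day 8 was compared with day 4. Day 4 cells had seen the induction medium alone, so day and medium changed together, and their parts were not tested. In WAT controls 5 of the 8 tested genes rose and 1 fell, beside 27.7% of all tested genes that rose, 33.2% that fell and 61% called in either direction. In BAT controls 6 rose and 1 fell, beside 28.7%, 40.4% and 69.2%. By fold of mean FPKM, Adrb3 and Aqp7 rose most. Adrb3 rose 3.23-fold in WAT controls (log2 change 1.53 ± 0.11, limma adjusted p 2.84e-07) and 4.39-fold in BAT controls (2.09 ± 0.11). Aqp7 rose 3.83-fold and 4.86-fold, G0s2 2.56-fold and 1.80-fold, and Pnpla2 1.49-fold and 2.60-fold in WAT and BAT controls. The enzymes below the first step were less uniform. Lipe rose in BAT controls (0.65 ± 0.10) and was at 0.12 ± 0.10 in WAT controls (limma adjusted p 0.318), and Mgll rose in WAT controls (0.74 ± 0.07) and was at 0.00 ± 0.07 in BAT controls (limma adjusted p 0.979). Pde3b fell in WAT controls (-0.45 ± 0.07) and rose in BAT controls (0.58 ± 0.07). Abhd5 fell in BAT controls (-0.41 ± 0.07) and was at -0.03 ± 0.07 in WAT controls (limma adjusted p 0.689). The median log2 change of the 8 genes was 0.66 in WAT controls and 0.75 in BAT controls, beside -0.03 and -0.10 over all tested genes. Of the 8 adipocyte markers, 6 and 7 rose in WAT and BAT controls, with medians of 2.17 and 2.42.

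With EGCG the same interval ran down. In WAT cells 7 of the 8 genes fell between day 4 and day 8 (27.7% of all tested genes fell, 31.8% rose and 59.5% were called), and in BAT cells 7 of the 8 fell (28.2%, 29.7% and 58%). G0s2 fell by 1.54 and 1.63 on the log2 scale in WAT and BAT, Pde3b fell by 1.28 and 1.44, and Pnpla2 fell by 0.39 and 1.52. Aqp7, already at or under 0.682 FPKM on day 4, was at -0.20 ± 0.13 in WAT (limma adjusted p 0.193) and 0.00 ± 0.13 in BAT (adjusted p 0.987). The change in WAT passed the threshold with a pseudocount of 0.1 and on recovered reads. The median of the 8 genes was -0.62 in WAT and -1.27 in BAT, and that of the 8 adipocyte markers, of which 5 fell and 1 rose in each depot, was -0.46 and -0.42. The day 8 minus day 4 difference of the EGCG effect was negative and called for all 8 genes in WAT (19.7% of all tested genes were called lower, 29.7% higher and 49.4% in either direction) and for all 8 in BAT (20.6%, 34.7% and 55.4%), from -0.82 for Pde3b to -2.88 for G0s2 in WAT, and from -0.49 for Abhd5 to -3.27 for Adrb3 in BAT. Both days of a depot were from separate libraries, and each carried its own controls.

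**Figure D4:**
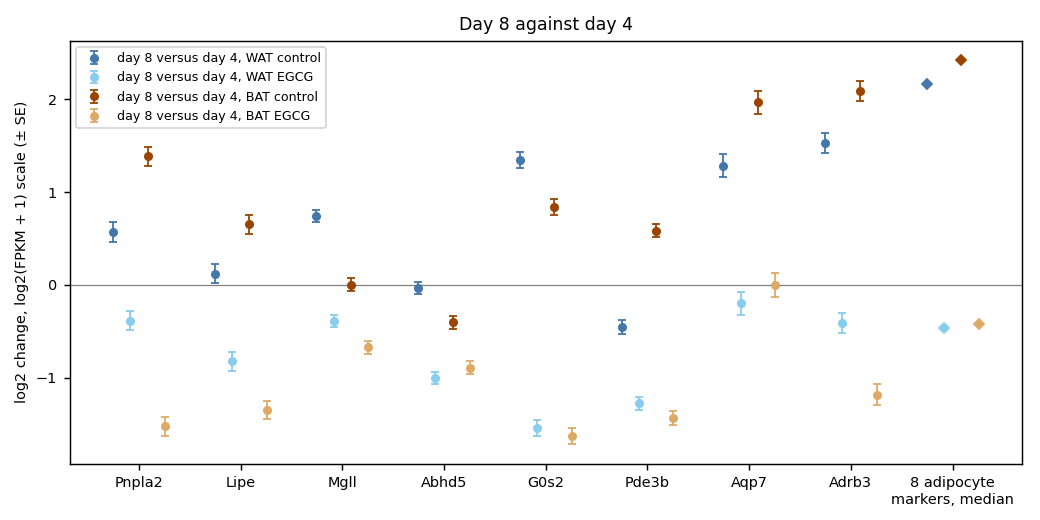
Log2 change from day 4 to day 8 on the log2(FPKM + 1) scale (vertical axis) for the 8 tested genes (horizontal axis), with bars of 1 SE from limma, in control and EGCG cells of WAT and BAT, and the median of 8 adipocyte markers as diamonds. Control points lie above EGCG points of the same depot for all 8 genes.

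The depots were compared within each day and treatment. In controls all 8 tested genes were higher in BAT than in WAT on day 4 (41.4% of all tested genes were higher, 14.4% lower and 55.8% called) and on day 8 (31.6%, 22% and 53.6%). Adrb3 was 4.01-fold higher in BAT controls on day 4 (log2 change 1.83 ± 0.11, limma adjusted p 2.53e-07) and 5.45-fold higher on day 8 (2.39 ± 0.11). G0s2 was 3.72-fold and 2.61-fold higher, and Pnpla2 2.04-fold and 3.57-fold higher. The smallest gaps on day 8 were those of Mgll, 1.23-fold (limma adjusted p 0.00371), and Abhd5, 1.33-fold (limma adjusted p 0.000380). Of the 8 adipocyte markers, 7 were also higher in BAT controls on each day, with median log2 differences of 0.79 and 0.93, beside 0.99 and 1.56 for the 8 genes and 0.15 and 0.05 over all tested genes.

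Among cells with EGCG, 7 genes were higher in BAT on day 4 (32.9% of all tested genes were higher, 15.8% lower and 48.7% called) and 6 on day 8 (24.4%, 14% and 38.4%). Adrb3 was 13.3-fold higher in BAT on day 4 and 11.4-fold on day 8 (log2 change 1.97 ± 0.11, limma adjusted p 2.04e-07). Lipe was 5.14-fold and 4.23-fold higher in BAT, and Aqp7 2.91-fold and 15.4-fold, the latter against 8 reads in WAT. Abhd5 was not called, at -0.10 ± 0.07 on day 4 (limma adjusted p 0.233) and 0.01 ± 0.07 on day 8 (adjusted p 0.953). On day 4 all 3 BAT libraries of Abhd5 lay below the 3 WAT libraries, and it was called lower in BAT with quantile normalization (-0.21, limma adjusted p 0.0132) and in the replicate block over both tables (-0.21, adjusted p 0.00307). Pde3b was 1.23-fold higher on day 4 and at 0.12 ± 0.07 on day 8 (limma adjusted p 0.232). The call of Pde3b on day 4 was lost without BAT day 4 EGCG replicate 2 (log2 change 0.24), that of Aqp7 on day 4 without WAT day 4 EGCG replicate 2 or BAT day 4 EGCG replicate 2 (0.28 in both fits), and that of Mgll on day 8 without WAT day 8 EGCG replicate 1, WAT day 8 EGCG replicate 2 or BAT day 8 EGCG replicate 2 (0.25, 0.23 and 0.20). The call of Mgll was also lost with quantile normalization (0.15, limma adjusted p 0.0999) and in the replicate block over both tables (0.13, adjusted p 0.0812), and in replicate 3 after rescaling Mgll was at 5.05 FPKM in BAT and 5.09 FPKM in WAT, the other direction. That of Pde3b on day 4 was lost with quantile normalization (0.16, limma adjusted p 0.0786), and that of Aqp7 on day 4 without the filter on low values (adjusted p 0.0540) and in a fit of the compared groups alone (adjusted p 0.0679).

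Whether EGCG acted on the genes to another extent in BAT than in WAT was tested as the difference of the log2 changes, BAT minus WAT. On day 4 all 8 differences were called, 3 higher and 5 lower, beside 12% and 16.1% of all tested genes and 28.1% in either direction. Pnpla2, Lipe and Adrb3 fell less in BAT, by 1.0 ± 0.15 (limma adjusted p 0.000478), 1.12 ± 0.14 and 0.90 ± 0.15. Abhd5, G0s2 and Mgll fell more in BAT, by differences of -0.88 ± 0.10 (limma adjusted p 7.06e-05), -0.86 ± 0.12 and -0.50 ± 0.10. The differences of Pde3b (-0.31 ± 0.10, limma adjusted p 0.0436) and Aqp7 (-0.57 ± 0.18, adjusted p 0.0339) lost their call in 10 and 9 of 17 alternatives, and that of Aqp7 turned to 0.15 on recovered reads (voom adjusted p 0.868). The call of Pde3b was lost without any 1 of 7 of the 8 libraries, all but BAT day 4 control replicate 1 (-0.35 to -0.22). That of Aqp7 was lost without WAT day 4 control replicate 1 (-0.47), WAT day 4 EGCG replicate 1 (-0.46), BAT day 4 EGCG replicate 1 (-0.46) or BAT day 4 control replicate 2 (-0.43).

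On day 8, 6 of the 8 differences were called, all lower, beside 19.7% of all tested genes called lower, 19.4% higher and 39.2% in either direction. Pde3b differed most (-1.50 ± 0.10, limma adjusted p 1.34e-06): it fell 14.2-fold in BAT and 4.94-fold in WAT. Pnpla2 (-0.95 ± 0.15), G0s2 (-0.46 ± 0.12) and Abhd5 (-0.40 ± 0.10) also fell further in BAT, while Lipe (0.07 ± 0.14, limma adjusted p 0.747) and Mgll (-0.05 ± 0.10, adjusted p 0.717) were not called. The call of G0s2 was lost on recovered reads (-0.37, voom adjusted p 0.163). With a pseudocount of 0.1 the difference of Lipe was 0.50 (limma adjusted p 0.0305), a smaller fall in BAT. For Adrb3 and Aqp7 the direction depended on the scale, and both were under 0.4 FPKM in replicates 1 and 2 of WAT day 8 cells with EGCG. On log2(FPKM + 1) the differences were -0.43 ± 0.15 (limma adjusted p 0.0466) and -1.05 ± 0.18, with a pseudocount of 0.1 they were 0.76 (adjusted p 0.00497) and 0.43 (0.445), and on recovered reads 1.05 (voom adjusted p 0.0555) and 2.07 (0.0478). The call of Adrb3 was also lost without any 1 of 7 of the 8 libraries, all but WAT day 8 control replicate 1 (-0.48 to -0.26), and with a replicate block (adjusted p 0.0528). In replicate 3 as deposited, 3 of the 6 called differences had the same sign, and after rescaling all 6 did.

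Over the 8 groups the order of the levels was close to the same for most of the genes. BAT day 8 controls were highest for Pnpla2, Lipe, G0s2, Pde3b, Aqp7, Adrb1 and Adrb3, and BAT day 4 controls for Mgll and Abhd5, though for Mgll the libraries of those 2 groups overlapped. WAT day 8 cells with EGCG were lowest for all of the genes but Adrb1, and for Abhd5 they overlapped BAT day 8 cells with EGCG. Other neighbours that overlapped were WAT controls of day 8 and day 4 for Lipe, both days of BAT with EGCG for Aqp7, and for Abhd5 WAT day 4 cells with EGCG, WAT controls of both days and BAT day 4 cells with EGCG. For Adrb1 each of the groups from rank 2 to rank 6 overlapped the next. All neighbours of Pnpla2, G0s2, Pde3b and Adrb3 were apart in replicates 1 and 2.

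The other genes of the pathway, 43 genes listed by role, did not move as a block. Of 42 tested, 11 were higher and 19 lower with EGCG in WAT on day 4, 14 and 18 in WAT on day 8, 14 and 19 in BAT on day 4, and 13 and 25 in BAT on day 8, with median log2 changes of -0.16, -0.09, -0.08 and -0.67. Of all tested genes, 34.4%, 44.7%, 27.9% and 46.5% were higher and 19.3%, 18.9%, 20.6% and 26.1% lower in the same order. Of the 42 pathway genes tested, 14 were lower in all 4 comparisons and 7 were higher in all 4. Among the 5 droplet proteins, 3, 3, 3 and 5 were lower in the same order. Plin1, the perilipin that holds Abhd5 at rest, was at 147, 135 and 119 FPKM in WAT day 8 controls and 0.171, 0.707 and 0.125 FPKM with EGCG. In BAT on day 8 it was at 338, 322 and 297 FPKM and 13.5, 12.3 and 10.1 FPKM. Its log2 changes were -4.22 ± 0.14, -6.65 ± 0.14, -2.24 ± 0.14 and -4.58 ± 0.14 in WAT day 4, WAT day 8, BAT day 4 and BAT day 8 cells (limma adjusted p 1.08e-11 in WAT on day 8). Cidec, which fuses lipid droplets, changed by -3.50 ± 0.11, -6.57 ± 0.11, -2.25 ± 0.11 and -5.87 ± 0.11. Both fell further than Pnpla2 in WAT on either day. Pnpla3, a relative of Pnpla2 on the droplet, was at 0.10 ± 0.09 in WAT on day 4 (limma adjusted p 0.365) and fell by 5.95 on the log2 scale in BAT on day 8. Hilpda, a hypoxia-induced inhibitor of adipose triglyceride lipase, went the other way, at 19.7, 20.1 and 23.7 FPKM in WAT day 4 controls and 108, 94.1 and 115 FPKM with EGCG (2.28 ± 0.06, limma adjusted p 3.47e-10). It rose in BAT on day 4 (0.98 ± 0.06) and in WAT on day 8 (0.26 ± 0.06), and fell in BAT on day 8 (-0.62 ± 0.06).

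Among the receptors of the list, 4, 3, 3 and 5 of 5 activating receptors were lower with EGCG in WAT day 4, WAT day 8, BAT day 4 and BAT day 8 cells, and 4, 5, 5 and 5 of 7 restraining receptors. Of all tested genes, 19.3%, 18.9%, 20.6% and 26.1% were lower in the same order. Adra2a, the alpha receptor that restrains lipolysis through inhibitory G proteins, rose in BAT, from 2.28, 2.47 and 2.49 FPKM in day 8 controls to 5.17, 4.65 and 5.20 FPKM (0.81 ± 0.10, limma adjusted p 1.44e-05) and by 0.66 ± 0.10 on day 4. In WAT it rose on day 8 (0.40 ± 0.10), which replicate 3 showed only after rescaling, and was at -0.06 ± 0.10 on day 4 (limma adjusted p 0.635). In BAT on day 8, Adrb3 thus fell while Adra2a rose.

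Between receptor and lipase the RNA of the signal chain changed in both directions, as did that of all tested genes. With EGCG, 34.4%, 44.7%, 27.9% and 46.5% of all tested genes were higher and 19.3%, 18.9%, 20.6% and 26.1% lower. The order is WAT day 4, WAT day 8, BAT day 4 and BAT day 8, here and below. Of 6 subunits of protein kinase A, 3, 4, 3 and 4 were higher and 2 lower in each comparison. Of 7 adenylyl cyclases, 3, 3, 4 and 3 were higher and 2, 2, 2 and 3 lower. Of 4 other phosphodiesterases, 1, 2, 2 and 2 were higher and 1, 0, 0 and 1 lower. Within the kinase, Prkar2b, the regulatory subunit typical of fat, changed by -1.92 ± 0.09, -2.77 ± 0.09, -2.03 ± 0.09 and -3.29 ± 0.09 (limma adjusted p 6.01e-11 in BAT on day 8), whereas Prkar1a, a subunit of most cells, changed by 0.33 ± 0.04, 0.80 ± 0.04, 0.60 ± 0.04 and 0.83 ± 0.04. Of the other subunits, Prkaca was called lower in 3 comparisons, and Prkar2a was called lower in 1 and higher in 2. Prkacb and Prkar1b were called higher in all 4. Among the inhibitory G protein genes, Gnai1 was at -2.04 ± 0.08, -1.65 ± 0.08, -1.78 ± 0.08 and -1.41 ± 0.08. Gnai2 was at 0.41 ± 0.05, 0.94 ± 0.05, 0.62 ± 0.05 and 1.25 ± 0.05, and Gnai3 was called higher in all 4. In WAT day 8 replicate 3 as deposited, Prkar1a, Gnai2 and Hilpda were lower with EGCG, and after rescaling they were higher. The kinase and G protein genes of this paragraph were named after their values had been seen.

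**Figure D5:**
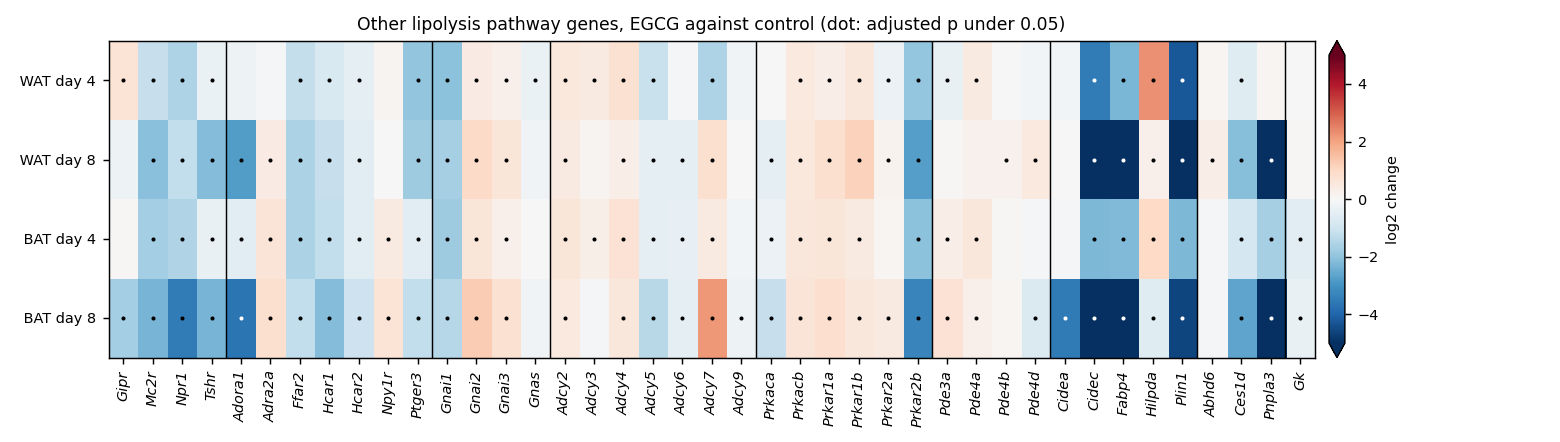
Log2 change with EGCG against control (colour, blue lower and red higher, ending at 5 in either direction) of the tested pathway genes that are reported here (columns, in blocks by role) in WAT and BAT on days 4 and 8 (rows), with a dot where the limma adjusted p was under 0.05. Plin1, Cidec, Fabp4 and Prkar2b are blue in all 4 rows, Hilpda is red in 3, and Gnai2 and Prkar1a are red in all 4.

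Over the 16 libraries of replicates 1 and 2 the genes most alike to each member were looked up among 12708 genes, by Pearson correlation of log2(FPKM + 1). The points share libraries and the large control and EGCG groups, and the correlations are descriptions. Pnpla2 was closest to Car5b (r = 0.991) and Agpat2 (0.988), Lipe to Cdo1 (0.990) and Cebpa (0.988), and Mgll to Mc5r (0.991) and C130074G19Rik (0.989). Abhd5 was closest to Ptplb (0.987) and Acat2 (0.979), G0s2 to Fabp4 (0.988) and Ivd (0.986), and Pde3b to Sik2 (0.991) and Foxred1 (0.989). Aqp7 was closest to Slc25a22 (0.984) and Ppp2r5a (0.983), and Adrb3 to Hp (0.970) and Tusc5 (0.965). Among the members themselves r was highest for Pnpla2 with Lipe (0.987) and lowest for Abhd5 with Aqp7 (0.62).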

How the data were processed

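RNA sequencing of 24 libraries was taken from the deposited FPKM tables. The authors deposited FPKM values for replicates 1 and 2 and for replicate 3 separately. The submitters' processing notes name FastQC 0.11.9, HISAT2 2.2.0, HTSeq 0.11 and build mm9. Samples were grouped by label into 2 depots, 2 days and 2 treatments. FPKM multiplied by gene length gave whole reads for 100% of values within a tolerance of 0.01. Gene coordinates are those of GENCODE vM1 (NCBIM37, counted from 1), and promoters those of RefSeq (GRCm38.p6).

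Replicates 1 and 2 (16 libraries) were fitted as log2(FPKM + 1), with 1 mean per group, by limma 3.58.1 with eBayes trend in R 4.3.3 (8 residual degrees of freedom). Tests were two-sided, with Benjamini-Hochberg adjustment within each of 16 contrasts over 14095 genes of at least 1 FPKM in 2 libraries, and genes were called at an adjusted p under 0.05. A change on this scale understates that of low genes. Replicate 3 gave direction only. Folds are ratios of mean FPKM over replicates 1 and 2. Counting intervals are exact, at 95%.

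Named genes are the 9 members, Adra2a, Plin1 and Hilpda, the 2 pathway genes with the largest change in each EGCG comparison, and the 2 genes most correlated with each member. Prkar2b, Prkar1a, Prkaca, Prkar2a, Prkacb, Prkar1b, Gnai1, Gnai2 and Gnai3 were added after their values had been seen. A further gene of the rule is not reported here. Members and lists were chosen with earlier results of these data known. Alternatives were a pseudocount of 0.1, no filter and a filter of 5 FPKM, median-ratio and quantile scaling, a replicate block, voom on recovered reads, the groups of a contrast alone, and each library left out.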

Additional observations from a re-analysis of the deposited data

Results flagged for a closer look

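The results below are listed because the effect of EGCG differed between the depots or between the days by a test of the difference itself (limma interaction term, adjusted p under 0.05). Values are differences of log2 changes on the log2(FPKM + 1) scale over replicates 1 and 2. No explanation was tested for any of them.

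For BAT minus WAT on day 4 the differences were 1.0 for Pnpla2, 1.12 for Lipe, -0.50 for Mgll, -0.88 for Abhd5, -0.86 for G0s2, -0.31 for Pde3b, -0.57 for Aqp7 and 0.90 for Adrb3. A positive value means that the gene fell less in BAT. For BAT minus WAT on day 8 they were -0.95 for Pnpla2, -0.40 for Abhd5, -0.46 for G0s2, -1.50 for Pde3b, -1.05 for Aqp7 and -0.43 for Adrb3, and the values of Aqp7 and Adrb3 changed sign with a pseudocount of 0.1. The call of G0s2 on day 8 was lost on recovered reads.

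For day 8 minus day 4 in WAT the differences were -0.96 for Pnpla2, -0.95 for Lipe, -1.13 for Mgll, -0.97 for Abhd5, -2.88 for G0s2, -0.82 for Pde3b, -1.49 for Aqp7 and -1.94 for Adrb3. For day 8 minus day 4 in BAT they were -2.91 for Pnpla2, -2.0 for Lipe, -0.68 for Mgll, -0.49 for Abhd5, -2.48 for G0s2, -2.02 for Pde3b, -1.97 for Aqp7 and -3.27 for Adrb3. A negative value means that the gene fell further below its control on day 8.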

How the results depend on the processing

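The numbers of members called in the 16 comparisons stayed within 1.5 times in 229 of 229 alternatives, a wide limit for so few genes. Within it, the depot difference on day 8 went from 6 members called to 4 on recovered reads. That on day 4 went from 8 to 6 with a pseudocount of 0.1, with no filter and with median-ratio scaling. Of 1848 recomputed log2 changes of single members, 1795 counted as unchanged, and 42 lost and 5 gained the call. Another 6 changed sign with a call before or after the change of setting. A change of sign with no call in either fit, possible for values near 0, counted as unchanged. Adrb1, not tested in the first fit, counted as unchanged if it moved by less than its spread between replicates 1 and 2. Of the 428 that compare EGCG with control, 427 counted as unchanged. The 6 were Abhd5 with EGCG in WAT on day 4 in the fit of both tables with a replicate block (-0.18), Aqp7 in the depot difference on day 4 on recovered reads (0.15), and in the depot difference on day 8 Aqp7 (0.43) and Adrb3 (0.76) with a pseudocount of 0.1, and Aqp7 (2.07) and Adrb3 (1.05) on recovered reads with voom. The last 4 concern genes under 0.4 FPKM in replicates 1 and 2 of WAT day 8 cells with EGCG, and the cause was not tested for any of the 6. On recovered reads, voom called 7662 genes with EGCG in WAT on day 4 and 8963 on day 8, and 7001 and 10238 in BAT, against 7567, 8962, 6838 and 10231 on log2(FPKM + 1). Same-numbered replicates did not deviate together (correlation of deviations -0.0703 to 0.0810), so the numbers give no pairing. A replicate block in replicates 1 and 2 left 7 members called with EGCG in WAT on day 4, 8 in the other 3 EGCG comparisons, and moved the depot difference on day 8 from 6 to 5 members. Without WAT day 8 EGCG replicate 3, the library with 61.0% of its reads on 5 genes, the fit to the other libraries of both tables called 8 members in WAT on day 8. With quantile normalization the median log2 change of all tested genes with EGCG was 0.01 and 0.08 in WAT on days 4 and 8. In BAT it was -0.01 and 0.11. Without it these medians were 0.09 and 0.17 in WAT and 0.03 and 0.17 in BAT.

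The fit rests on 2 libraries a group. Adrb1, at 0 to 118 reads a library in replicates 1 and 2, is limited by depth. EGCG dose is not given in the labels.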
